A study of Arabidopsis thaliana with 12 samples.

Results

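Histone H3 is encoded in Arabidopsis thaliana by a family of near-identical genes, and 3 of them, AT1G13370, AT1G09200 and AT5G65360, each had 1 array feature that the platform annotation assigns to that locus alone. These 3 genes were taken by that annotation from 3439 features of which 692 carry 1 gene. The table was measured on total RNA from roots of 6 kn09 samples and 6 wild-type (WT) samples, all of ecotype Wassilevskija. The labels describe kn09 as a mutant that is hypersensitive to proline and whose mitochondria cannot catabolise it. All 12 samples, WT included, had spent 48 h on MS medium with 100 mM glucose, so no sample without glucose was available for comparison. The labels give neither the lesion in kn09, nor the number of lines, nor the age of the plants, and do not say whether samples 1 to 6 of a genotype came from separate cultures. The p-values below rest on the spread among these samples alone, and that spread may be technical.

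H3 is a core histone: with H4, H2A and H2B it forms the protein spool of the nucleosome around which DNA is wound. Plants make a replication type, H3.1, which is laid down behind the replication fork with the help of the chaperone CAF-1, and a replacement type, H3.3, which is laid down outside replication with the help of HIRA. H3.1 genes are expressed mostly in cells that copy their DNA, which in a root are found above all in the tip. The RefSeq gene table lists AT1G09200 and AT5G65360 as H3.1 and gives AT1G13370 no name beyond its locus. AT1G13370 was treated as an H3 variant gene because it was specified as one. H3.1 genes resemble each other closely, so RNA of one could also bind the feature of another, and the signals of the H3.1 features cannot be assigned to single genes with certainty.

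Each sample gave 1 intensity per feature on a scale whose brightest feature stands at 100. The sample median lay between 0.102 and 0.121 in kn09 and between 0.139 and 0.227 in WT. Between 398 and 522 features stood at exactly 0 in kn09 samples, against 153 to 235 in WT samples. On the intensities as deposited the median log2 difference of all features, kn09 minus WT, was -0.85. After quantile normalization, which gives all samples the same distribution, it was -0.06. A dim feature could thus be lower in kn09 along with most of the array, and each H3 gene was read on both scales. The root label could not be checked against the 6 root meristem markers considered, since 0 of them lay on any feature. Of 10 green-tissue markers 1 lay on a feature of its own, LHB1B2, a light-harvesting gene, with 33.1 ± 6.78 in kn09 and 34.8 ± 5.44 in WT (SD, n = 6 each). It was bright in both genotypes and did not pass (limma adjusted p = 0.498), and the part of green tissue in the H3 values was not tested.

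The comparison asked whether H3 transcripts differ between kn09 and WT roots, and whether the variant gene differs from the replication-type genes. AT1G13370, the variant gene, fell in kn09, with a log2 difference of -2.05 ± 0.60 (SE) after normalization and deposited means of 0.0890 ± 0.0824 in kn09 and 0.432 ± 0.0469 in WT (SD, n = 6 each). AT1G09200, one of the H3.1 genes, had deposited means of 0.217 ± 0.0885 in kn09 and 0.427 ± 0.0535 in WT (SD, n = 6 each), a gap near that of the array as a whole, and did not pass after normalization. AT5G65360, the other H3.1 gene, was listed at 0 in most samples of both genotypes and gave no usable comparison.

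AT1G13370 had deposited intensities of 0.145, 0.184, 0.159, 0.00458, 0.00206 and 0.0403 in kn09 samples 1 to 6. In WT samples 1 to 6 it had 0.386, 0.447, 0.501, 0.466, 0.386 and 0.407. Every kn09 sample lay below every WT sample, and kn09 samples 4 and 5 stood close to 0 while WT samples lay close together. The ratio of the deposited means, WT over kn09, was 4.86. An exact 2-sided permutation test of the deposited means gave p = 0.00216, the smallest that 6 against 6 samples allow. Such a complete separation with kn09 lower was seen in 15.4% of all features as deposited, and in 3.37% after quantile normalization, where AT1G13370 also separated completely. Less H3 RNA per cell and fewer cells that express the gene cannot be told apart in bulk roots.

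**Figure D1:**
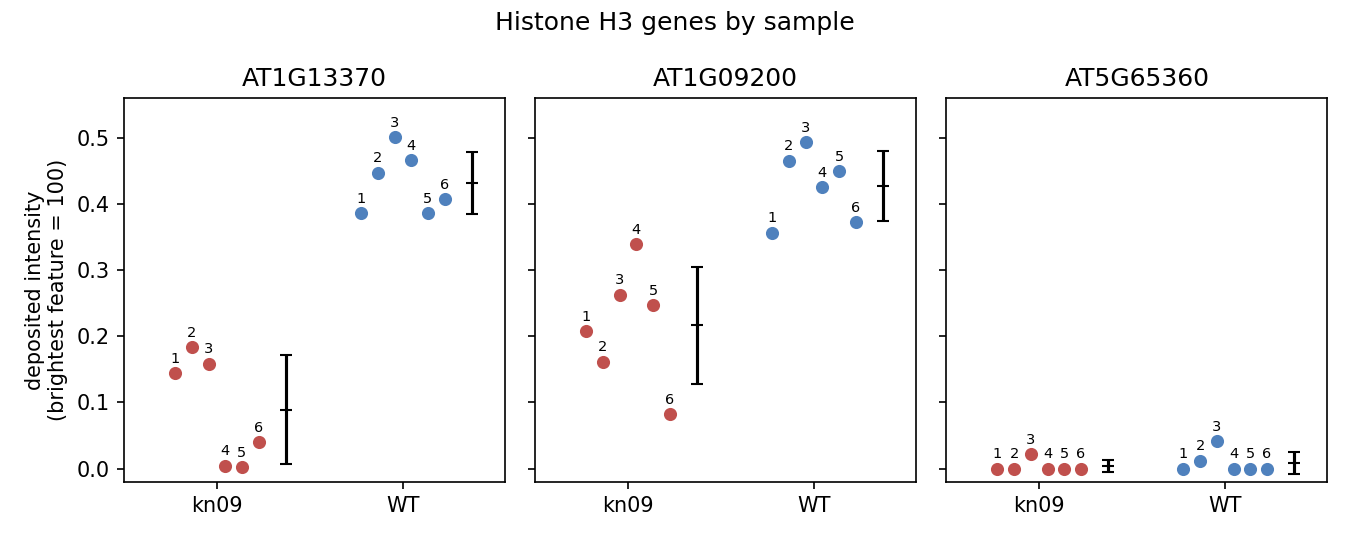
Deposited intensity (vertical axis, linear, brightest feature of a sample = 100) of the 3 H3 genes in each kn09 and WT sample, numbered as in the labels, with the mean and SD (n = 6) as black bars. All kn09 samples of AT1G13370 and of AT1G09200 lie below all WT samples, AT1G13370 falls to 0.00458 and 0.00206 in kn09 samples 4 and 5, and AT5G65360 lies at or near 0 throughout.

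On the normalized scale AT1G13370 fell by 2.05 ± 0.60 (log2, SE), a 4.14-fold lower level in kn09, with a limma adjusted p of 0.0475 over all features and 6 of 6 kn09 samples below every WT sample. It was the 1 member of 3 that passed as lower, where 6.31% of all 3439 features passed as lower and 6.48% as higher. Ranked from the most negative difference, it stood at place 100 of 3439. As deposited its log2 difference was -3.51 ± 0.99 (SE) with a limma adjusted p of 0.0191, at place 83, and 33.7% of features passed as lower on that scale. With median scaling the difference was -3.01 ± 1.01 (SE), where the gene no longer passed (limma adjusted p = 0.0605) and 9.22% of features passed as lower. The adjusted p lies close to the threshold of 0.05, and the call was also lost without any one of kn09 samples 4, 5 and 6 or any one WT sample (limma adjusted p up to 0.0909, log2 differences between -2.13 and -1.64). The labels do not say whether consecutively numbered samples of a genotype (1 and 2, 3 and 4, 5 and 6) are related. With these pairs as a random block the adjusted p in limma was 0.19, and 0.785% of features passed as lower. With the sample number as a block instead, the adjusted p in limma was 0.0768. Features at 0 numbered 522 and 521, 398 and 437, and 457 and 488 in the kn09 pairs. In the WT pairs they numbered 235 and 197, 155 and 153, and 220 and 224. The random block, which fits a within-pair correlation shared by all features, raised the SE of AT1G13370 from 0.60 to 0.83. It also cut the called features from 440 to 82. Whether the samples of a pair are related was not tested by itself. If they are, the limma adjusted p of 0.0475 and the exact permutation p-values treat related samples as separate ones.

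The position of AT1G13370 within each sample does not depend on a scale factor. It stood at percentiles 58.3, 64.5, 57.2, 14.2, 13.9 and 29.9 of all features in kn09 samples 1 to 6. In WT samples 1 to 6 it stood at percentiles 69.4, 72.7, 73.0, 72.2, 73.2 and 74.3. The gene thus held nearly the same place in all WT samples and a lower place in all kn09 samples, with a spread among kn09 samples (SD 23.1 percentile points, n = 6) far wider than among WT samples (SD 1.66, n = 6). Samples 3 and 4 of kn09 are consecutive in number and stood at percentiles 57.2 and 14.2. This 1 gene does not show whether consecutive samples are related. On the normalized log2 scale the SD was 1.57 in kn09 and 0.11 in WT (n = 6 each), which limma pools into 1 spread. Without kn09 samples 4 and 5, an alternative chosen after the values were seen, the log2 difference was -1.09 and the limma adjusted p 0.0803.

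AT1G09200, of the replication type, had deposited intensities of 0.207, 0.162, 0.263, 0.339, 0.247 and 0.0821 in kn09 samples 1 to 6. In WT samples 1 to 6 it had 0.357, 0.465, 0.493, 0.425, 0.450 and 0.372. Again no kn09 sample reached the lowest WT sample, although kn09 sample 4 came close to it. The ratio of the deposited means, WT over kn09, was 1.97, and their exact 2-sided permutation p was 0.00216. As deposited its log2 difference was -1.10 ± 0.31 (SE; limma adjusted p = 0.0189), only 0.24 below the median of all features on that scale. After normalization the difference was -0.45 ± 0.26 (SE; limma adjusted p = 0.272), the genotypes overlapped, and the gene ranked at place 1149 of 3439. Kn09 sample 4 then stood at percentile 74.2, above 5 of the 6 WT samples, and kn09 sample 6 lay lowest at percentile 44.1.

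AT5G65360, also of the replication type, was listed at 0 in 5 of 6 kn09 samples and in 4 of 6 WT samples. The exceptions were 0.0220 in kn09 sample 3, and 0.0122 and 0.0413 in WT samples 2 and 3. Sample 3 was thus the highest in both genotypes, and the genotypes overlapped. The exact permutation p of the deposited means was 0.727. The limma difference of 0.24 ± 0.47 (SE; adjusted p = 0.758) rests on the floor set for zeros, and its sign turned to -0.44 as deposited and to -0.23 with median scaling, so no direction is given. A listed 0 does not show that the gene was silent.

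**Figure D2:**
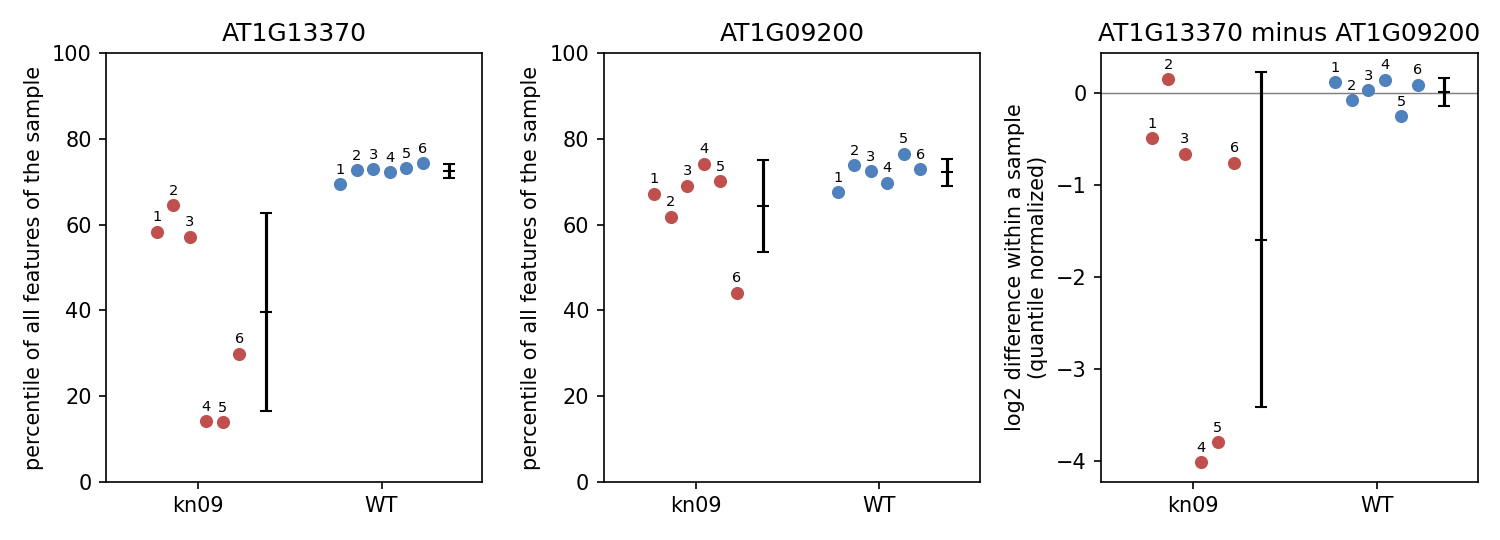
Percentile of AT1G13370 and of AT1G09200 among all features of the same sample (left and centre) and the log2 difference between both features within a sample after quantile normalization (right), for numbered kn09 and WT samples, with the mean and SD (n = 6) as black bars. WT samples sit together in all panels, whereas kn09 samples 4 and 5 drop to percentiles 14.2 and 13.9 for AT1G13370 and to -4.01 and -3.79 in the right panel.

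Whether the variant gene differed from the replication-type genes was tested within samples, on the log2 difference between both features after normalization. The level of one feature against another has no meaning of its own here, but its change between genotypes does. AT1G13370 minus AT1G09200 was -0.49, 0.15, -0.66, -4.01, -3.79 and -0.76 in kn09 samples 1 to 6. In WT samples 1 to 6 it was 0.11, -0.08, 0.03, 0.15, -0.25 and 0.09. Of the kn09 samples 5 lay below every WT sample and kn09 sample 2 lay above them all. The mean was -1.59 ± 1.82 in kn09 and 0.01 ± 0.15 in WT (SD, n = 6 each). The difference between genotypes, kn09 minus WT, was -1.60 ± 0.74 (log2, SE): AT1G13370 was lower relative to AT1G09200 in kn09. The exact 2-sided permutation p was 0.0152, or 0.0227 adjusted over the 3 gene pairs tested. The other pairs involve AT5G65360 and test no difference between H3 genes, yet the adjusted value depends on their p-values too. Without kn09 samples 4 and 5 the difference was -0.44 and the adjusted exact permutation p 0.0643, so that the size of the contrast rests on those 2 samples. It also lost the call without any one WT sample, where the adjusted exact permutation p lay between 0.0812 and 0.101. At the unchanged difference of -1.60 the call was lost with the sample number as a block (adjusted exact sign-flip p = 0.0938). That test flips the signs of the 6 differences between same-numbered samples and allows few distinct p-values. Means of consecutive samples gave an adjusted exact permutation p of 0.15, but that setting could not pass. With 3 against 3 the unadjusted p cannot go below 0.1.

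The other contrasts set AT1G13370 and AT1G09200 against AT5G65360, which lay at the floor after normalization in 5 of 6 kn09 and 5 of 6 WT samples. They restate the change of the brighter gene and test no difference between H3 genes, so no p is given for them.

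A further 5 features carry 2 or 3 loci each that include an H3 gene, and are given without a gene name because their signal cannot be divided among those loci. The feature whose 2 loci are both H3.1 had 0.475 to 0.717 in kn09 (median percentile 82.3) and 0.868 to 1.03 in WT (median percentile 85.5). Its genotypes did not overlap as deposited, yet its normalized log2 difference was -0.25 ± 0.18 (SE; limma adjusted p = 0.371), and it overlapped there, as AT1G09200 did. A feature shared by an H3.1 locus and a gene not listed as H3.1 had 0.233 to 0.457 in kn09 and 0.369 to 0.865 in WT. Its normalized log2 difference was -0.19 ± 0.26 (SE).

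Of the replacement type, 2 features carry only H3.3 loci. The one with 2 loci had 0.549 to 0.810 in kn09 and 0.866 to 1.26 in WT, and a normalized log2 difference of -0.32 ± 0.19 (SE; limma adjusted p = 0.268). The one with 3 loci was the brightest H3 feature, with 1.35 to 1.80 in kn09 and 1.33 to 2.21 in WT, and a normalized log2 difference of 0.07 ± 0.19 (SE; limma adjusted p = 0.824). The last feature carries the centromeric and the male-gamete H3 loci and was dim, with 0 to 0.0519 in kn09, where 2 samples were at 0, and 0.0182 to 0.144 in WT. Its log2 difference was -1.40 ± 0.66 (SE) after normalization (limma adjusted p = 0.175), -3.66 ± 0.72 (SE) as deposited (adjusted p = 0.00452) and -3.25 ± 0.71 (SE) with median scaling (adjusted p = 0.0116).

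**Figure D3:**
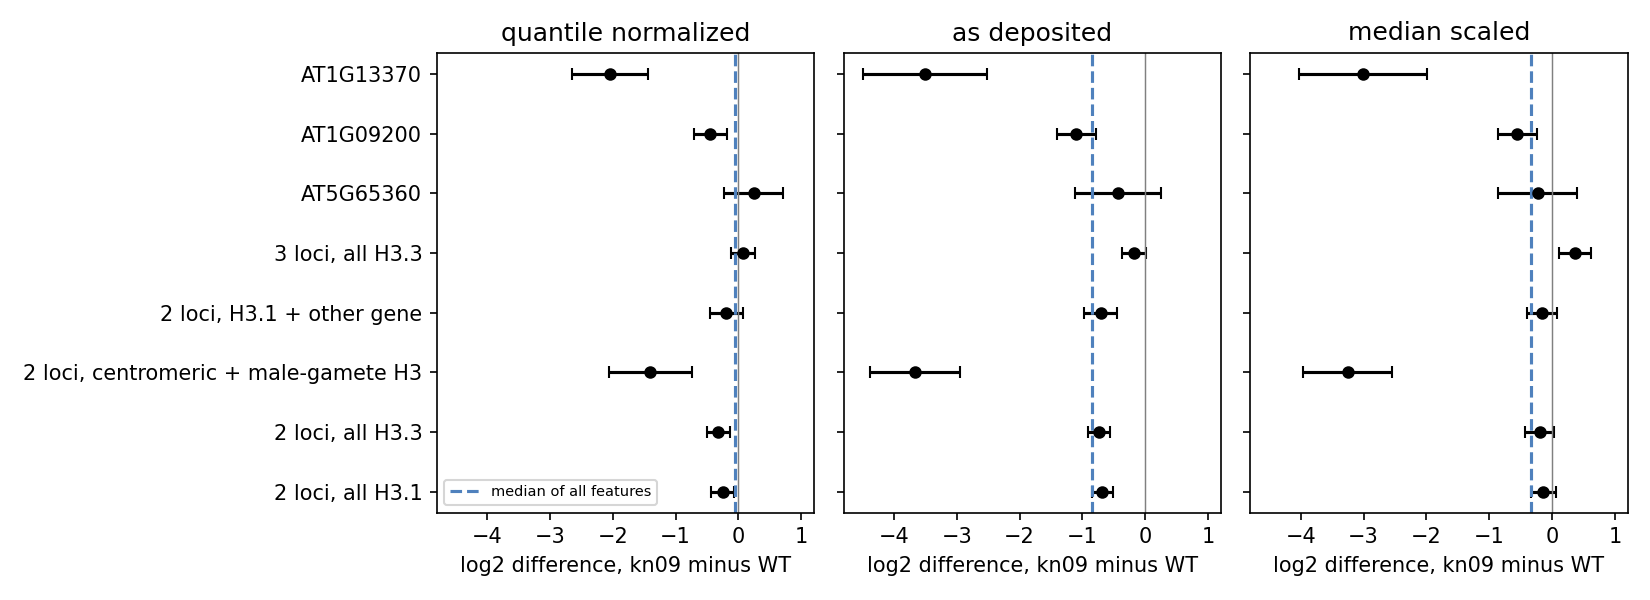
Log2 difference, kn09 minus WT, with its SE from limma (horizontal axis) for the 3 H3 genes and the 5 features of several loci that include an H3 gene, on 3 scalings; the dashed line is the median of all 3439 features. AT1G13370 and the feature of centromeric and male-gamete loci lie far left of the dashed line on all 3 scalings, whereas AT1G09200, the H3.1 features and the H3.3 feature of 2 loci lie nearer to it; the H3.3 feature of 3 loci lies to its right, at -0.18 as deposited and 0.36 with median scaling.

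Over all 8 H3 features, 1 passed after normalization, where 12.8% of all features passed in either direction. As deposited 5 of the 8 passed as lower, where 33.7% of all features did. The median log2 difference of the 8 was -0.28 after normalization and -0.72 as deposited, beside -0.06 and -0.85 over all features. Of the 8, 4 did not overlap between genotypes as deposited with kn09 lower, where 15.4% of all features did. The 2 H3.3 features, which share loci, had normalized log2 intensities correlated at r = 0.61 over the 12 samples, a description with no test. AT1G09200 and the H3.1 feature of 2 loci had r = 0.32, and AT1G13370 and AT1G09200 r = 0.20. Over all pairs of the 8 features r ran from -0.53 to 0.72. The highest was that of AT1G13370 with the H3.3 feature of 2 loci, and AT1G13370 had r = 0.61 with the H3.1 feature of 2 loci. Those H3.3 and H3.1 features had r = 0.66 with each other, so these values did not group the features by H3 type.

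**Figure D4:**
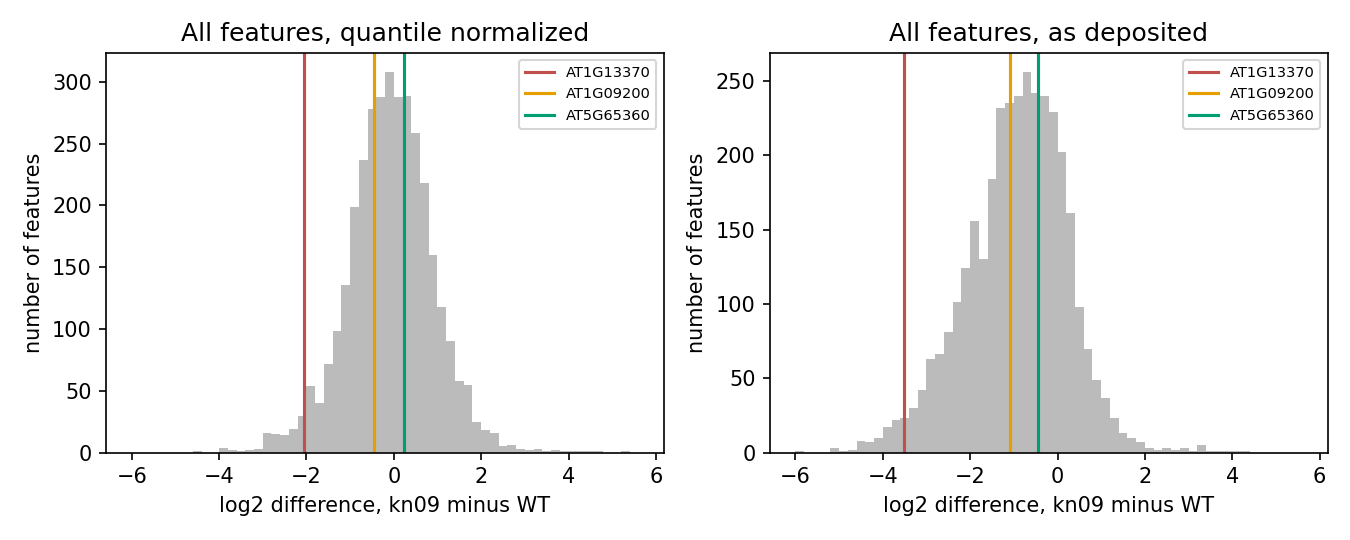
Number of features (vertical axis) by log2 difference, kn09 minus WT (horizontal axis), for all 3439 features after quantile normalization (left) and as deposited (right), with the 3 H3 genes as vertical lines. AT1G13370 lies in the left tail in both panels, at -2.05 and -3.51, while AT1G09200 and AT5G65360 lie in the bulk of the distribution.

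Genes that work with H3 were almost absent from the features of 1 gene. None of the 7 H3 chaperone loci, 18 loci of other histones, 41 of DNA replication and 87 of the cell cycle considered, found by locus or by their RefSeq names, lay on a feature with 1 gene or several. Of 109 loci of histone modification and chromatin 1 did, chr31, a chromatin remodelling gene by its RefSeq name. It had 0.845 ± 0.292 in kn09 and 1.17 ± 0.222 in WT (SD, n = 6 each), and a log2 difference of -0.10 ± 0.23 (SE; limma adjusted p = 0.794). The H3 values thus stand without a measure from these lists of replication or cell division beside them. Genes outside the lists were not searched for such roles.

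Among 606 other features with 1 gene that were above 0 in at least 9 of 12 samples, the patterns most like AT1G13370 over the 12 samples were those of AT1G07850 (Pearson r = 0.85), AT2G18920 (r = 0.84) and AT5G42070 (r = 0.82). Of these AT2G18920 passed as lower, with 0.101 ± 0.0503 in kn09 and 0.419 ± 0.151 in WT (SD, n = 6 each; limma adjusted p = 0.0197). After the genotype means were removed, r with AT1G13370 was 0.94 for AT1G07850, 0.63 for AT2G18920 and 0.80 for AT5G42070. The patterns most like AT1G09200 were those of AT1G07460 (r = 0.88), AT4G24910 (r = 0.87) and AT4G37420 (r = 0.87). The 3 genes most like AT1G13370 and the 3 most like AT1G09200 did not overlap, but sets of 3 from 606 features would seldom share any. For AT5G65360, which has 3 values above 0, the highest r was 0.75, with AT4G03090, then 0.68 with AT2G47360 and 0.59 with AT4G17260. These are descriptions of 12 samples, picked as the highest among all those features, and carry no p.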

How the data were processed

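The values are the intensities deposited by the authors, 1 for each feature in each sample. The sources used here do not say how they were scanned, background-corrected or scaled. The number of arrays limits the precision. Intensities were quantile normalized in limma 3.58.1 (R 4.3.3), a floor was set at the 1st percentile of positive normalized values (0.0062), which zeros were given too, and log2 was taken. Each of 3439 features was tested with lmFit and eBayes (2-sided, genotype only), with Benjamini-Hochberg adjustment over all genes and features and a threshold of 0.05. Gene pairs were tested by exact permutation over 924 labelings. With the sample number as a block they were tested by exact sign flips of the differences between same-numbered samples. The code was tested on simulated data.

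Names come from the platform annotation (692 features with 1 gene, 870 with several, 1877 unnamed here), updated through RefSeq (TAIR10.1), which matched 690 of the 692. They were not checked against probe sequences, so a name may be wrong for its feature. The members, lists and tests were chosen with earlier results of these data known. All features of the 3 loci are named; of background lists up to 5 members, and per member the 3 most alike patterns. Alternatives changed scaling, zeros, floor, filter, blocks, position along the feature numbers (running median of 51) and samples. No pair of samples held identical values.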

Additional observations from a re-analysis of the deposited data

Results flagged for a closer look

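Among 22 groups of 6 values, each being 1 H3 feature or contrast in 1 genotype, 3 had a value that stood apart, where chance alone flags about 1 group in 20. For AT5G65360 this was kn09 sample 3, at -4.64 (normalized log2), while the remaining kn09 samples all lay at the floor, -7.33. It was also WT sample 3, at -6.08, while the remaining WT samples lay at the same floor. Where 5 values tie at the floor, any value above it stands out whatever its size. The log2 difference AT1G13370 against AT5G65360 was 4.63 in WT sample 3, with the other WT samples between 5.65 and 5.97, and this repeats the value of AT5G65360 in that sample.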

How the results depend on the processing

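AT1G13370 kept its negative direction in all 30 alternatives and its call in 11 of them (adjusted or exact permutation p between 0.00216 and 0.242). The call was lost with median scaling (-3.01), and at the unchanged difference of -2.05 with pairs as a random block (limma adjusted p = 0.19), pair means (0.242) and the replicate block (0.0768), and without kn09 samples 4 and 5 (-1.09). AT1G09200 passed as deposited (-1.10) and in the exact permutation test of deposited means (-0.210), and in none of the other 27 alternatives. AT5G65360 reversed as deposited (-0.44), with median scaling (-0.23), in deposited means (-0.00525), without kn09 sample 3 (-0.23) and without kn09 samples 3 and 4 (-0.25). The contrast of AT1G13370 with AT1G09200 was negative in all 28 alternatives and called in 14. It lost the call with pair means (-1.60, adjusted exact permutation p = 0.15, where 3 against 3 cannot go below 0.1 unadjusted), the replicate block (-1.60, 0.0938) and without kn09 samples 4 and 5 (-0.44). The contrasts with AT5G65360, which lay mostly at the floor, are values only and no test of a difference between genes: AT1G13370 against it passed in 14 of 25 alternatives and did not with pair means or the replicate block (-2.29 in both), nor in 9 of 18 settings that left out samples. AT1G09200 against it passed in 2 of 25, with the floor at the 5th percentile (-0.57) and with position removed (-0.96). No random block was run for contrasts, and AT5G65360 could not be measured with zeros as missing or among features above 0 in all samples.

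Leaving out 1 sample gave -2.32 to -1.64 for AT1G13370, -0.55 to -0.23 for AT1G09200, -0.23 to 0.43 for AT5G65360, and -1.91 to -1.10, -2.64 to -1.97 and -0.88 to -0.26 for the contrasts in the order above. Leaving out a pair gave -2.64 to -1.46, -0.64 to -0.25 and -0.25 to 0.47 for the genes, and -2.21 to -1.19, -3.10 to -1.57 and -0.92 to -0.39 for the contrasts.

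The count of called features was 440, and 1257 as deposited (99 higher, 1158 lower), 82 with the random block, 16 with pair means, 211 with the replicate block and 139 without kn09 samples 4 and 5. It lay between 192 (without WT sample 3) and 507 without 1 sample, and between 130 and 827 (without WT samples 1 and 2) without a pair. Deviations of same-numbered samples correlated at 0.0683 to 0.0995, which is weak, beside a mean of -0.0163 for different numbers. All 6 kn09 and all 6 WT samples correlated best with their own number, a hint from the data that the main tests do not use. The causes were not tested.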
